A study of Mus musculus with 30 samples.

Results

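Polyamine metabolism was followed through 10 genes, Odc1, Arg1, Arg2, Amd1, Srm, Sms, Sat1, Azin1, Oaz1 and Paox, of the 22121 gene symbols on the array. Every probe set that carried 1 of these symbols was taken, which gave 19 probe sets of 45037, and all 19 were bright enough to be tested. Whole shaved back skin came from female WT and D6-deficient (D6 null) mice of strain 129–C57BL/6, aged 8 to 12 weeks. D6 is a scavenging receptor for inflammatory CC chemokines, and in the D6-deficient mice it is missing throughout life. The skin was painted with TPA, a phorbol ester that provokes inflammation and epidermal growth, as 3 applications of 50 μM in acetone at intervals of 24 h. It was collected 1, 2, 4 or 6 days after the last of these, and day 0 denotes controls of each genotype that received acetone alone, although the sample titles call them untreated. With 5 days and both genotypes there were 10 groups, each of 3 mice labelled as biological replicates and 1 array a mouse, for 30 arrays in all.

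Polyamines (putrescine, spermidine and spermine) are small cations that bind nucleic acids and are needed by growing cells. Arginase makes ornithine from arginine, ornithine decarboxylase turns it into putrescine, and spermidine and spermine are then built with aminopropyl groups taken from decarboxylated S-adenosylmethionine. Ornithine decarboxylase induction is a classical early response of mouse skin to TPA, and the enzyme is removed through antizyme, which the polyamines themselves induce. Much of this control acts on translation and protein turnover, which transcript levels do not measure.

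RefSeq promoter windows of build GRCm38.p6, 250 bases before to 50 bases after a transcript start, were found for 6 of the 10 genes (Odc1, Amd1, Sms, Sat1, Oaz1 and Paox), with 8 windows in all because Sms and Paox each had 2 starts. None was found for Arg1, Arg2, Srm and Azin1. The windows of 3 genes are printed because they belong to the synthesis gene Odc1 and the breakdown gene Sat1, which were higher after TPA, and to Sms, which was lower. Capitals mark GGGCGG, the core of the GC box, and CACGTG, an E-box, read on either strand, so that CCGCCC is the same GC box on the other strand. The windows lie at chr12:17544623-17544922 (plus strand) for Odc1, chrX:155216400-155216699 (minus strand) for Sat1 and chrX:157492238-157492537 (minus strand) for the upstream of the Sms starts, and each is written 5′ to 3′ along its gene.
Odc1: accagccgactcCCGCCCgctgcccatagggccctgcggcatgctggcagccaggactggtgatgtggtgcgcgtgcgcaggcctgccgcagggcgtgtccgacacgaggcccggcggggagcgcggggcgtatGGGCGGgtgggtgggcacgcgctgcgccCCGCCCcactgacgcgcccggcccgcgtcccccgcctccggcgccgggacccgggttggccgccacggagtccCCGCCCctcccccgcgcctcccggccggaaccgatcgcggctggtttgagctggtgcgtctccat
Sat1: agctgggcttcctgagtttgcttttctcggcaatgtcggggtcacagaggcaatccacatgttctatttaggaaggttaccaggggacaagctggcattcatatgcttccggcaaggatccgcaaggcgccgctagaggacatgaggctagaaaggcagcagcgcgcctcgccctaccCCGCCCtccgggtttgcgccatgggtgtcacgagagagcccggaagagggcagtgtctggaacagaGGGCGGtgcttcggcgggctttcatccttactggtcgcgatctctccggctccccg
Sms: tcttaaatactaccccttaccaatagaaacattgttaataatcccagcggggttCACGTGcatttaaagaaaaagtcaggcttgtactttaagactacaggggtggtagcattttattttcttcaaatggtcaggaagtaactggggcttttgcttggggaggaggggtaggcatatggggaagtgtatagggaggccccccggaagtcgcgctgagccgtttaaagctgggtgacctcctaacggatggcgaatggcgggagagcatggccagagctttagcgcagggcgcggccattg
The Odc1 window held 4 GC boxes, the nearest beginning 15 bases before the start, and the Sat1 window held 2. The window of the other Sms start, not printed here, also held 4. GGGCGG was found in 6 of the 8 member windows and in 35.7% of all 32851 promoter windows of the same length. The 2 Paox windows among these 6 overlap and share the same sites. The E-box was found in 1 of the 8, 196 bases before the upstream Sms start, and in 7.15% of all windows. Neither TGANTCA, the site through which TPA-responsive AP-1 factors bind, nor TGACGTCA, the cyclic AMP response element, was present in a member window. They occurred in 7.81% and 1.79% of all windows. At these shares 8 windows are too few to show a lack of either site, and Arg1, Arg2, Srm and Azin1 had no window. These are matches of letters in 300 bases and do not show binding.

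Unless given as sums, values are log2 intensities, and a probe set passed the test at an adjusted p under 0.05 in a fit to the 30 arrays. Array medians ranged from 5.64 to 5.80, and the median SD within a group was 0.15. The D6 gene, listed as Ccbp2, was lower in every D6-deficient array than in every WT array for 1 probe set (3.30 to 3.86 against 4.15 to 5.76), lower on average for another by 0.69, and the third did not pass (log2 difference of -0.07, adjusted p = 0.80); where these lie relative to the deletion is not given in the sources used here. Keratins and other epidermal markers were present in every array, with the summed intensity of their 15 probe sets between 43822 and 145220. Because whole skin was measured, a change in a transcript per cell cannot be told apart from a change in the number of cells that carry it, which holds for all results that follow.

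After TPA the arginases showed the largest rises of the 10 genes, and Srm was raised at every day. Sat1 was highest at day 2 and Odc1 and Azin1 at day 4. Sms was lower, and the group means of the antizyme gene Oaz1 spanned 0.13 for its brightest probe set and 0.19 for the other. In WT skin, 7 of the 19 probe sets were higher and 2 lower at day 1, beside 11.4% and 12.7% of all 36029 tested probe sets. At day 2 there were 3 higher and 3 lower, beside 11% and 15% of all. Day 4 was the broadest WT response with 13 higher and 4 lower, beside 17.3% and 21.8%, and day 6 had 4 higher and 2 lower, beside 10.2% and 11.9%. The median change of the 19 was 0.40, 0.16, 0.59 and 0.24 at days 1, 2, 4 and 6, whereas that of all tested probe sets lay between -0.01 and 0.01.

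D6-deficient skin had 9 higher and 1 lower at day 1, beside 18.2% and 18.1% of all tested probe sets. Its day 2 count was 9 higher and 3 lower, beside 17.5% and 20.6%. At day 4 there were 11 higher and 4 lower, beside 18.8% and 22.4%, and at day 6 there were 9 higher and 2 lower, beside 16% and 15.7%. Median changes of the 19 were 0.35, 0.38, 0.84 and 0.29 in the same order, against medians of all tested probe sets between -0.01 and 0.02.

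A rise of more than 3-fold, the threshold of the study's methods, was limited among the members to the arginases and, at 1 point, Sat1. In WT skin it was met by 2, 0, 3 and 2 of the 19 probe sets at days 1, 2, 4 and 6, beside 0.93%, 1.2%, 1.76% and 0.799% of all. In D6-deficient skin it was met by 2, 4, 3 and 2, beside 1.06%, 1.7%, 1.97% and 0.888%. No member fell by more than 3-fold at any day in either genotype. The plot of changes from the controls shows these rises beside the smaller ones of the other genes.

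**Figure D1:**
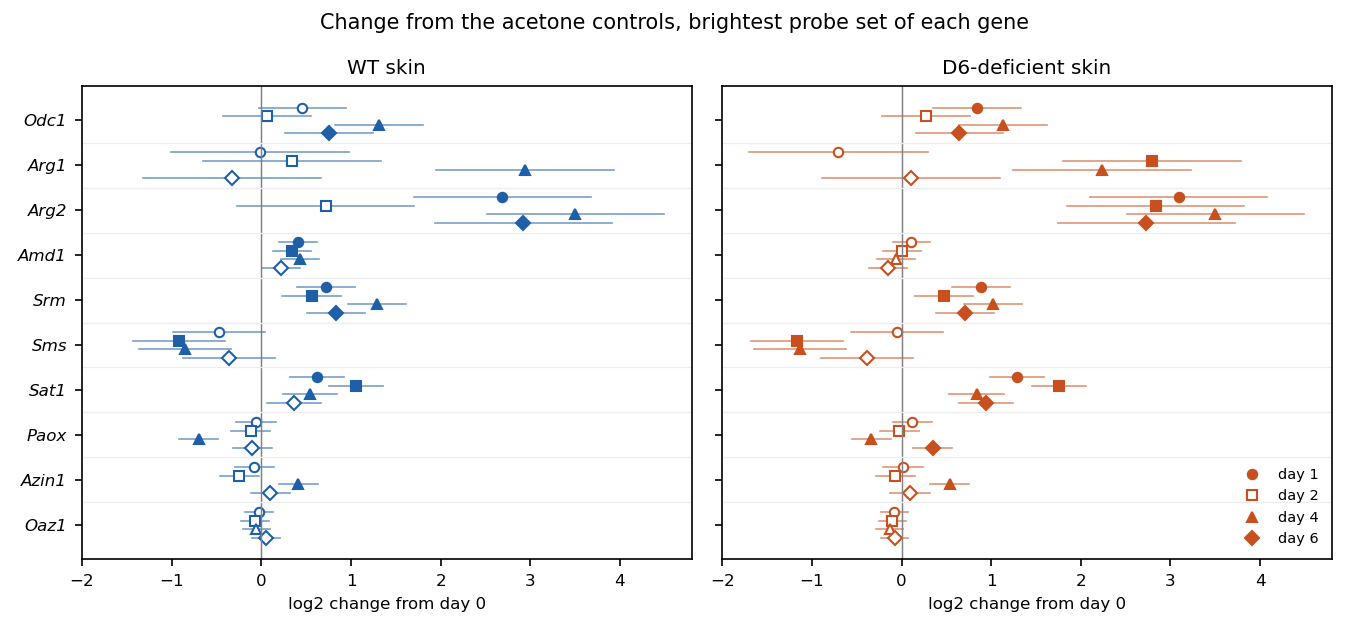
Log2 change from the day 0 controls (x axis) of the brightest probe set of each of the 10 genes (rows), in WT skin (left) and D6-deficient skin (right). Symbols give the day, filled where the adjusted p was under 0.05, and lines are 95% intervals; Arg1 and Arg2 lie farthest to the right, and Arg1 at day 2 is filled in D6-deficient skin alone.

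Arg1, the cytosolic arginase of liver and of activated myeloid cells, was abundant at day 2 in D6-deficient skin and at day 4 in both genotypes. In the controls its single probe set read 8.31, 8.43 and 8.47 in the WT arrays and 9.13, 8.79 and 9.11 in the D6-deficient arrays. At day 1 the values were 8.41, 8.09 and 8.67 in WT and 7.98, 7.84 and 9.10 in D6-deficient skin. The day 1 arrays overlapped or lay below their controls, and neither change passed (log2 changes of -0.01 and -0.70, adjusted p = 0.99 and 0.27).

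On day 2 the Arg1 arrays read 7.92, 10.32 and 8.00 in WT and 11.43, 11.98 and 11.99 in D6-deficient skin. All 3 D6-deficient arrays lay above all 3 WT arrays, and WT replicate 2 stood more than 2 log2 units above the other WT arrays of that day. The day 2 difference between genotypes was 3.05 ± 0.48 on the log2 scale (standard error, n = 3 per group), or 8.30-fold, with an adjusted p of 0.00027. Without WT replicate 2 of day 2 it was 3.84, and with each of the other arrays of that day left out in turn it lay between 2.64 and 3.24, past the threshold each time. By the methods' t-test followed by Benjamini-Hochberg adjustment it did not pass (adjusted p = 0.24).

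Arg1 in WT skin then rose by 2.59 from day 2 to day 4 (adjusted p = 0.00048), where the arrays read 11.52, 11.05 and 11.46. The D6-deficient arrays of day 4 read 11.20, 11.39 and 11.13, so the genotypes overlapped and the difference was -0.10 (95% interval, -1.09 to 0.89). In D6-deficient skin the level had already risen by 3.50 from day 1 to day 2 (adjusted p = 2.7e-05) and the further change to day 4 was -0.56 (adjusted p = 0.50). Relative to its own controls Arg1 was 7.67-fold higher in WT at day 4 and 6.93-fold and 4.70-fold higher in D6-deficient skin at days 2 and 4.

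By day 6 Arg1 in WT skin had fallen by 3.26 from day 4 (adjusted p = 2.1e-05), to 8.14, 8.15 and 7.96, below every WT control array. D6-deficient skin read 8.17, 10.48 and 8.70 at day 6, a fall of 2.12 from day 4 (adjusted p = 0.0015) in which replicate 2 remained high. The day 6 difference between genotypes did not pass (log2 difference of 1.04, adjusted p = 0.58).

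Arg2, the mitochondrial arginase, differed from Arg1 in being raised at days 1 and 6 as well. Its brightest probe set read 5.01, 5.61 and 5.79 in the WT controls and 5.96, 5.84 and 6.10 in the D6-deficient controls, the latter all higher, with a difference of 0.50 that did not pass (adjusted p = 0.70). On day 1 it read 8.69, 7.04 and 8.75 in WT and 9.20, 9.23 and 8.75 in D6-deficient skin, every array above its controls. These rises were 6.45-fold in WT (log2 change of 2.69 ± 0.48, adjusted p = 0.00024) and 8.52-fold in D6-deficient skin (3.09, adjusted p = 2.8e-05).

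At day 2 Arg2 in WT skin fell back to 5.70, 7.39 and 5.46, overlapping its controls, while D6-deficient skin kept 8.61, 9.19 and 8.60. The fall in WT from day 1 was 1.97 (adjusted p = 0.038), and replicate 2, the array that was also high for Arg1, was again the highest. The genotype difference at day 2 was 2.62 ± 0.48, or 6.14-fold (adjusted p = 0.0013), and without that WT array it was 3.22. By the methods' t-test with Benjamini-Hochberg adjustment it did not pass (adjusted p = 0.22). The other Arg2 probe set gave 2.69 (adjusted p = 0.0013), again with no overlap between genotypes.

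Day 4 brought Arg2 to its highest level in both genotypes, at 8.90, 8.51 and 9.51 in WT and 8.90, 9.82 and 9.68 in D6-deficient skin. The log2 changes from day 0 were 3.50 in each (adjusted p = 3.5e-06 and 2.6e-06), about 11.3-fold. Day 6 arrays read 7.80, 8.95 and 8.42 in WT and 9.22, 9.23 and 7.64 in D6-deficient skin, still above every control array of either genotype. No genotype difference in Arg2 passed on days 1, 4 or 6 (0.90, 0.50 and 0.31).

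**Figure D2:**
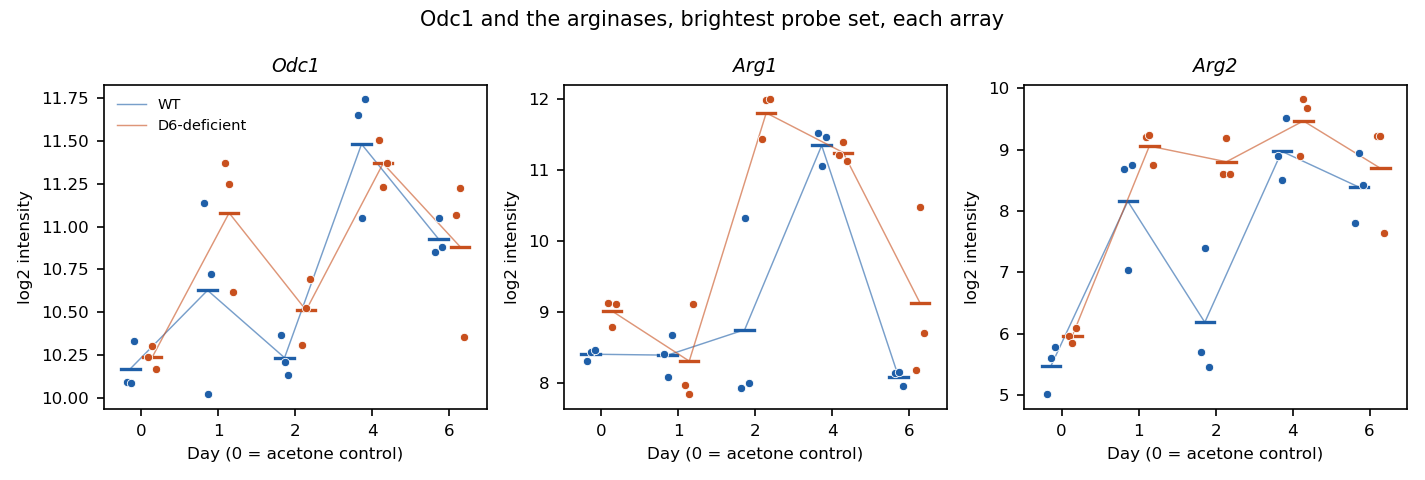
Log2 intensity (y axis) of the brightest probe sets of Odc1, Arg1 and Arg2 in each array (points) with group means (bars), by day (x axis, evenly spaced categories), WT in blue and D6-deficient in orange. Arg1 and Arg2 are separated by genotype at day 2 and overlap at day 4, while Odc1 overlaps between genotypes at each day.

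Neutrophil markers were high at days 2 and 4 but followed the arginases only in part. Of the 9 probe sets of a neutrophil list (such as S100a8, S100a9, Csf3r and Ltf), all 9 were higher at day 2 in D6-deficient skin and 4 in WT, and at day 4 there were 9 and 8. Their summed intensity at day 2 was 38519 to 52037 in WT, highest in replicate 2, and 51190 to 55730 in D6-deficient skin, and in the controls it was 1027 to 4862 and 2979 to 15280. WT replicates 1 and 3 of day 2 had sums of 45887 and 38519, although their Arg1 values lay below every WT control array. Such linear sums weigh the brightest probe sets most. By day 2 the median log2 change of all 9 probe sets from the controls had reached 1.01 for WT arrays, against 3.39 for D6-deficient arrays. The sums of WT replicates 1 and 3 thus do not show that the list as a whole was raised in those arrays. Between genotypes at day 2, 7 of the 9 were higher, with a median difference of 1.97. At days 1 and 6, when Arg2 was raised and Arg1 was not, 2 and 2 of the 9 were higher in WT. In D6-deficient skin 6 and 1 were higher on those days. At day 6 the D6-deficient replicate with high Arg1 also had the highest sum of its group, 23264 against 10489 and 7352. Macrophage markers, 10 probe sets, gave 6 higher and 0 lower at day 2 in D6-deficient skin and 3 higher and 1 lower in WT, and their summed intensity overlapped, at 27685 to 30876 and 26159 to 33666, against 22333 to 29068 and 30695 to 33649 in the controls of the same genotypes. Between genotypes at day 2, 2 of the 10 macrophage probe sets were higher and 0 lower, beside 4.45% of all tested, with a median difference of 0.12. In the change from day 0 to day 2, 3 were higher in D6-deficient skin and 0 lower, beside 5.4% of all, with a median of 0.64. The part of either cell type in the arginase values was not tested.

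Odc1 encodes ornithine decarboxylase, the rate-limiting enzyme of polyamine synthesis. Its brightest probe set was stable in the controls, at 10.09, 10.09 and 10.33 in WT and 10.24, 10.30 and 10.17 in D6-deficient skin. The peak came at day 4, with 11.65, 11.05 and 11.74 in WT and 11.50, 11.23 and 11.37 in D6-deficient skin, all above all controls. The rise was 2.48-fold in WT (log2 change of 1.31 ± 0.24, adjusted p = 1e-04) and 2.19-fold in D6-deficient skin (1.13, adjusted p = 0.00042). All 3 Odc1 probe sets passed at day 4 in both genotypes, with changes between 0.92 and 1.34.

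At day 2 Odc1 had no rise that passed for its brightest probe set. WT arrays read 10.37, 10.21 and 10.13 within the range of their controls or just above it, and D6-deficient arrays read 10.31, 10.53 and 10.70, above theirs (log2 changes of 0.06 and 0.28, adjusted p = 0.88 and 0.39). The dimmest of the 3 Odc1 probe sets passed at day 2 in D6-deficient skin, at 0.78 (adjusted p = 0.022). From day 2 to day 4 the brightest probe set rose by 1.25 in WT (adjusted p = 0.00061) and 0.86 in D6-deficient skin (adjusted p = 0.013).

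Days 1 and 6 were uneven for Odc1. On day 1 WT arrays read 11.14, 10.02 and 10.72, with replicate 2 below all its controls, and D6-deficient arrays read 11.37, 11.25 and 10.62. The change passed in D6-deficient skin (0.84, adjusted p = 0.0070) and not in WT (0.46, adjusted p = 0.17), and without WT replicate 2 of day 1 the WT change was 0.76 with an adjusted p of 0.020. The genotype difference at day 1 was 0.45 and did not pass (adjusted p = 0.65). For the dimmest Odc1 probe set it did not pass either (adjusted p = 0.53), but it passed when arrays were weighted by their quality (0.76, adjusted p = 0.023).

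On day 6 Odc1 read 10.85, 11.05 and 10.88 in WT and 11.07, 11.23 and 10.36 in D6-deficient skin, every array above its own controls. Both changes of this brightest probe set passed, at 0.76 (adjusted p = 0.023) and 0.65 (adjusted p = 0.039). The other Odc1 probe sets did not pass in WT skin at day 6, with means of 9.62 against 8.71 in the controls and 8.11 against 7.50. The WT call of the brightest probe set was lost without WT control replicate 1 or 2 or day 6 replicate 2, with values of 0.69 to 0.72. In D6-deficient skin it was lost without any of the 3 controls or without day 6 replicate 1 or 2, with values of 0.47 to 0.68.

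Markers of growing hair follicles, a tissue in which cells divide fast, moved with Odc1 on these days. Of the 10 probe sets of that list (such as Krt25, Krt71, Hoxc13 and Msx2), 8 were higher at day 1 and 9 at day 6 in WT, and 8 and 10 in D6-deficient skin, while 0 passed in either direction at days 2 and 4 in both genotypes. Their summed intensity was 296 to 401 in every WT array of days 0, 2 and 4 and 303 to 382 in the D6-deficient ones. At day 1 it was 13872, 2391 and 11182 in WT, and in D6-deficient skin it was 16778, 17999 and 11319. At day 6 it was 6797, 18819 and 17531 in WT and 21236, 51754 and 9303 in D6-deficient skin. In each of these 4 groups the array with the lowest follicle sum also had the lowest Odc1, the lowest Arg2 and the lowest sum of the 13 probe sets of dividing-cell genes (such as Mki67, Top2a and Birc5). At day 4, when Odc1 was highest, follicle sums were 309 to 375 in both genotypes, and 9 of the 13 dividing-cell probe sets were higher than in the controls in WT skin and 0 in D6-deficient skin. The part of follicles or dividing cells in the Odc1 and Arg2 values was not tested.

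**Figure D3:**
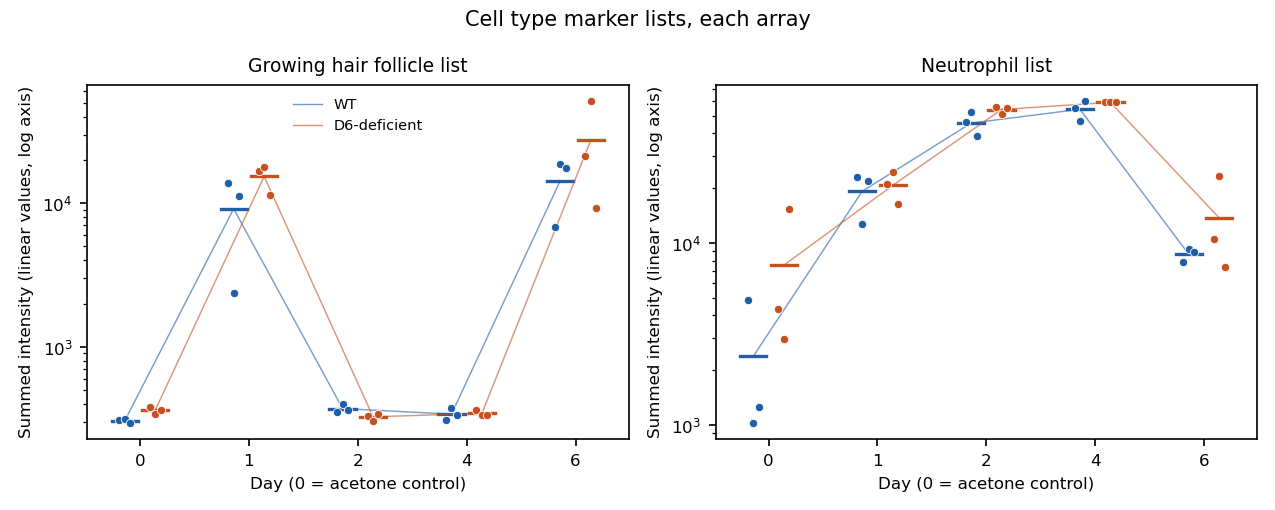
Summed linear intensity (y axis, log scale) of the growing hair follicle list (left, 10 probe sets) and the neutrophil list (right, 9 probe sets) in each array (points) with group means (bars), by day (evenly spaced categories). Follicle sums are 2391 or more at days 1 and 6 and 401 or less at the other days, and neutrophil sums are highest at days 2 and 4.

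Listing the groups by mean Odc1 put WT and D6-deficient day 4 first (11.48 and 11.37) and D6-deficient controls, WT day 2 and WT controls last (10.24, 10.23 and 10.17). Each group overlapped the next in this order except D6-deficient day 2 (mean of 10.51) and the D6-deficient controls below it. Over the 10 group means, the 5 genes most like Odc1 were Bysl, Ino80e, Snai1, Timeless and Timm10, with Pearson's r from 0.979 to 0.961. For Arg1 they were Ceacam10, Plekhg4, Slc15a3, Slfn4 and Fpr2, with r from 0.986 to 0.963. These genes are the closest of all those tested, over 10 points from the same arrays, so the values are given as a description.

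Srm, spermidine synthase, was the member with the steadiest rise after TPA. Its single probe set read 9.01, 9.26 and 9.17 in the WT controls and 9.42, 9.45 and 8.99 in the D6-deficient controls. At day 4 the arrays read 10.57, 10.24 and 10.50 in WT and 10.09, 10.35 and 10.47 in D6-deficient skin. At each of the 4 days all treated arrays of a genotype lay above all its controls. The log2 changes at days 1, 2, 4 and 6 were 0.72, 0.56, 1.29 and 0.83 in WT (adjusted p = 0.0017, 0.010, 7.3e-07 and 0.00059). In D6-deficient skin they were 0.88, 0.47, 1.02 and 0.71 (adjusted p = 0.00013, 0.020, 1.3e-05 and 0.0014). The day 2 changes were the smallest in both genotypes, and they did not pass without WT control replicate 1 (0.49) or WT day 2 replicate 1 (0.45), or without D6-deficient control replicate 3 (0.32) or day 2 replicate 3 (0.36). No genotype difference in Srm passed, with values from -0.13 to 0.31. The 5 genes most like Srm over the group means were Psmc4, Nup93, Spcs2, Rpusd1 and Rara, with r from 0.980 to 0.975.

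Sms, spermine synthase, moved the other way. Its brightest probe set read 8.85, 8.87 and 9.43 in the WT controls and 8.33, 7.98 and 8.07 at day 2. In D6-deficient skin the controls read 9.07, 8.81 and 9.25 and the day 2 arrays 8.06, 7.80 and 7.76. No day 2 array overlapped its controls, and the changes were -0.92 (adjusted p = 0.0075) and -1.17 (adjusted p = 0.00060). Day 4 was similar, at -0.85 and -1.13 (adjusted p = 0.0086 and 0.00074), and without WT control replicate 3 the WT calls at both days were lost (-0.73 and -0.66). At days 1 and 6 the brightest probe set did not pass in either genotype, with values from -0.47 to -0.05, although the day 6 change in D6-deficient skin was -0.72 without replicate 1 of that day (adjusted p = 0.027).

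The second Sms probe set by brightness was lower at every day in both genotypes, from -0.67 to -1.12 in WT and from -1.04 to -1.49 in D6-deficient skin, and none of its treated arrays overlapped its controls. The dimmest Sms probe set, whose mean of 3.90 lay near the low end of the array, was lower at every point but day 1 in D6-deficient skin, by 0.54 to 0.91. Skeletal muscle markers fell on the same days: of their 6 probe sets, 5 or 6 were lower at each day in each genotype, with medians from -0.89 to -1.80. Their summed intensity was 69473 to 86430 in the controls and 19519 to 51259 after TPA. The part of muscle in the Sms values was not tested.

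Amd1 encodes the decarboxylase of S-adenosylmethionine, which supplies the aminopropyl groups used by Srm and Sms. In WT skin its brightest probe set read 10.47, 10.54 and 10.64 in the controls and 11.02, 10.78 and 11.07 at day 1. It was higher than the controls in every WT array of days 1, 2 and 4, with changes of 0.40, 0.34 and 0.43 (adjusted p = 0.0053, 0.016 and 0.0015), and the day 2 call was lost without WT control replicate 1 (0.30, adjusted p = 0.070) or day 2 replicate 1 (0.30, adjusted p = 0.061). In D6-deficient skin the controls already read 10.94, 10.86 and 10.82, above all WT controls, and no change passed, with values from -0.15 to 0.11. The control difference between genotypes was 0.33 (adjusted p = 0.11), and it passed when arrays were weighted by their quality (0.37, adjusted p = 0.019). The other Amd1 probe set did not show this: its controls differed by 0.03, and it rose in WT at days 1 and 4, by 0.51 and 0.59 (adjusted p = 0.026 and 0.0065), and in D6-deficient skin at days 1 and 2, by 0.54 and 0.52 (adjusted p = 0.012 and 0.014).

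Sat1, spermidine and spermine acetyltransferase, starts the breakdown and export of polyamines. Its single probe set read 11.23, 11.17 and 11.01 in the WT controls and 10.85, 10.78 and 10.82 in the D6-deficient controls, all of the latter lower. At day 2 it read 11.99, 12.20 and 12.38 in WT and 12.51, 12.65 and 12.58 in D6-deficient skin, all of the latter higher. Neither difference passed on its own (-0.32 with adjusted p = 0.31, and 0.39 with adjusted p = 0.16). From day 0 to day 2 the rise was 2.08-fold in WT (log2 change of 1.05 ± 0.15, adjusted p = 1e-05) and 3.39-fold in D6-deficient skin (1.76, adjusted p = 3.4e-09).

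After day 2 Sat1 fell by 0.51 to day 4 in WT (adjusted p = 0.018) and by 0.92 in D6-deficient skin (adjusted p = 7.4e-05), when the genotypes overlapped. The changes from day 0 at days 1, 4 and 6 were 0.62, 0.54 and 0.37 in WT, the last of which did not pass (adjusted p = 0.074). In D6-deficient skin they were 1.29, 0.84 and 0.95, all of which passed.

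Paox, the peroxisomal oxidase that acts on acetylated polyamines, was lower at day 4. WT controls read 8.36, 8.34 and 8.46 and WT day 4 arrays read 7.58, 7.88 and 7.59, a change of -0.70 (adjusted p = 1.2e-05). In D6-deficient skin the controls read 8.16, 8.01 and 8.10 and the day 4 arrays 7.79, 7.72 and 7.76, a change of -0.34 (adjusted p = 0.012) that missed the threshold when arrays were centred on their medians (-0.26, adjusted p = 0.053). At day 6 Paox read 8.37, 8.30 and 8.18 in WT, with no change that passed, and lay above every control in D6-deficient skin, at 8.48, 8.33 and 8.51 (change of 0.35, adjusted p = 0.014). That last call was lost without D6-deficient control replicate 2 (0.31, adjusted p = 0.059).

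Azin1, the antizyme inhibitor, which protects ornithine decarboxylase from antizyme, was highest at day 4, the day of the Odc1 peak. Its brightest probe set read 9.75, 9.71 and 9.76 in WT controls and 10.23, 10.04 and 10.19 at day 4. The D6-deficient arrays read 9.92, 9.79 and 9.63 in the controls and 10.34, 10.38 and 10.24 at day 4. These changes were 0.41 and 0.54 (adjusted p = 0.0032 and 0.00023), and the other probe sets gave larger ones, 0.97 and 1.36 in WT and 1.09 and 1.57 in D6-deficient skin. The 3 probe sets disagreed in direction in WT skin at day 1 and in both genotypes at day 2. At day 6 the means of all 3 lay above those of the controls in both genotypes, and none passed in WT skin. In D6-deficient skin at day 2 the brightest gave -0.07 (adjusted p = 0.66) while the others rose by 0.38 and 0.99 (adjusted p = 0.0081 and 0.0048), so the mean of the 3 was a rise of 0.44 (adjusted p = 0.011).

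Oaz1 encodes antizyme itself. Its brightest probe set read between 12.97 and 13.25 in all 30 arrays, and no change passed, the values lying between -0.13 and 0.05. The other Oaz1 probe set, which the array also assigns to Gm9786, lay between 12.57 and 12.98 with no change that passed. Oaz1 was thus the only one of the 10 genes for which 0 probe sets passed in the 8 comparisons with day 0.

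**Figure D4:**
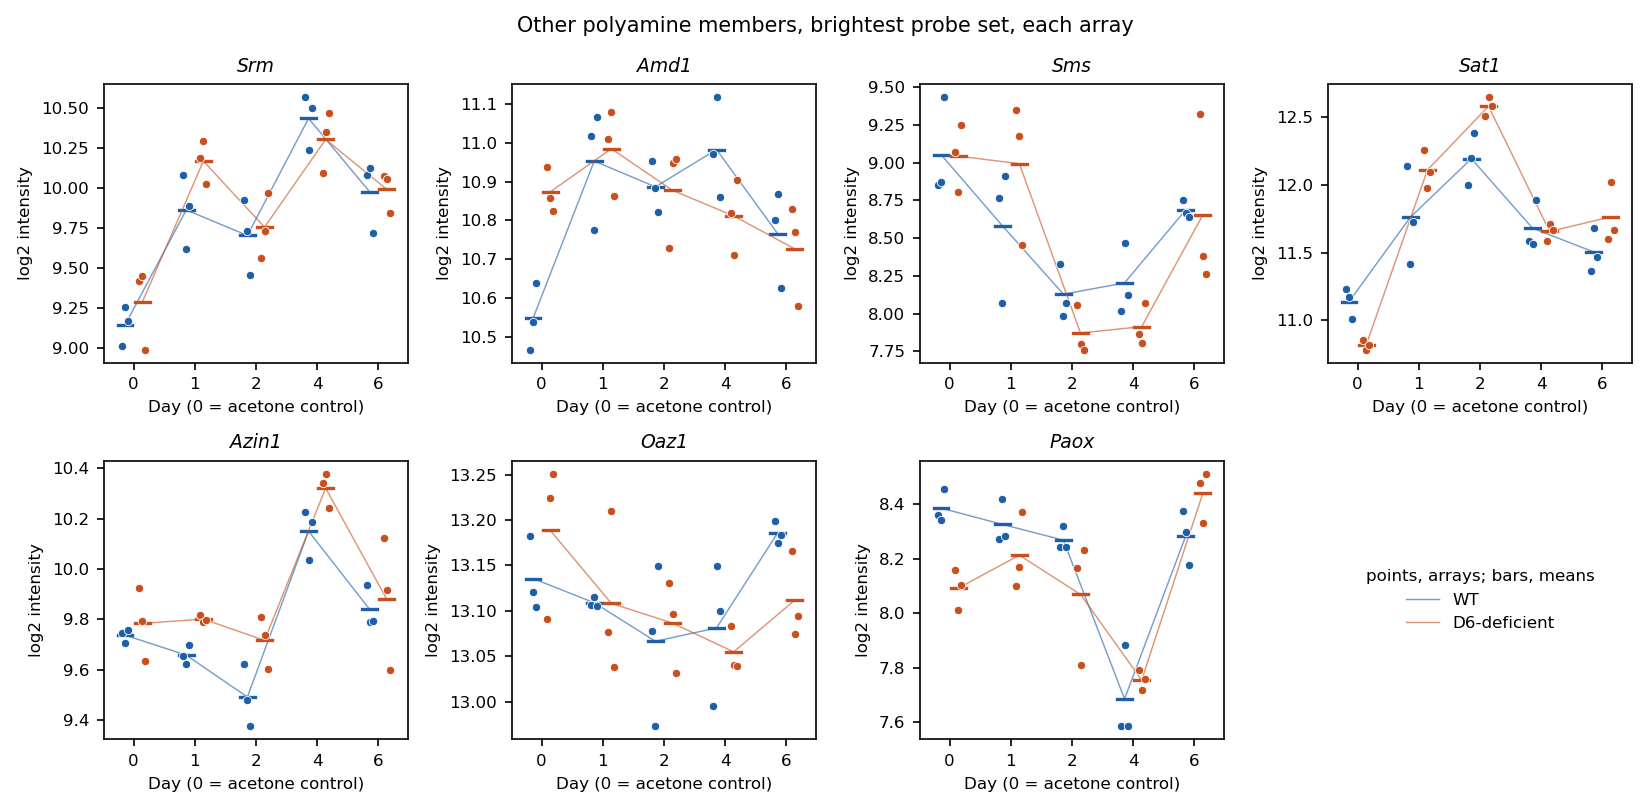
Log2 intensity (y axis, own range in each panel) of the brightest probe sets of the other 7 genes in each array (points) with group means (bars), by day (evenly spaced categories), WT in blue and D6-deficient in orange. Srm and Azin1 are highest at day 4, Sat1 at day 2, Sms is lowest at days 2 and 4 and Paox at day 4, and the Oaz1 axis spans less than 0.5.

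The comparison of the genotypes on the same day asked whether D6-deficient skin differed from WT skin under the same treatment. Among the 19 probe sets, 3 differed at day 2, all higher in D6-deficient skin, beside 4.45% of all tested probe sets. These were Arg1 and both Arg2 probe sets. On days 0, 1, 4 and 6 the count was 0 of 19, beside 1.57%, 0.0555%, 0.513% and 0.125% of all, and at an unadjusted p under 0.05 it was 3, 2, 1 and 1. By the methods' t-test with a difference of over 3-fold the count over the 5 days was likewise 3, and by that test after Benjamini-Hochberg adjustment it was 0. When arrays were weighted by quality it was 8 over the 5 days.

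**Figure D5:**
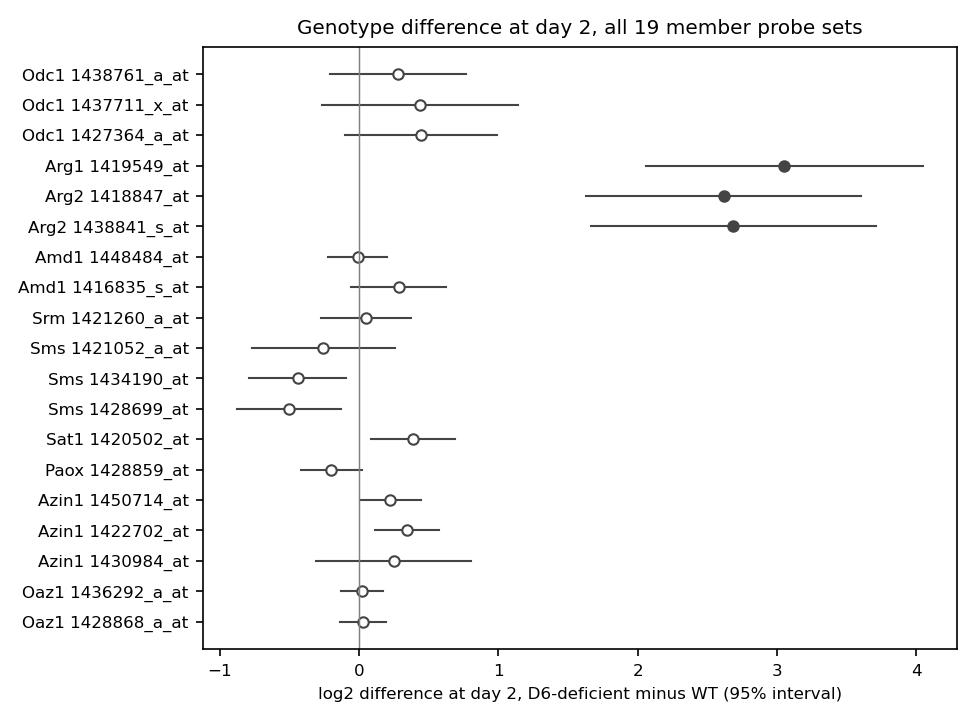
Log2 difference between D6-deficient and WT skin at day 2 (x axis) for all 19 member probe sets (rows), with 95% intervals, filled where the adjusted p was under 0.05. Arg1 and both Arg2 probe sets lie between 2.62 and 3.05, and the other 16 lie between -0.50 and 0.45.

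Whether the response to TPA itself differed was asked by comparing the change from day 0 between the genotypes. At day 2, 3 of the 19 probe sets passed, beside 5.4% of all tested. They were Arg1 (2.45 ± 0.68, adjusted p = 0.034), the dimmer Arg2 probe set (2.60 ± 0.70, adjusted p = 0.028) and Sat1 (0.71 ± 0.21, adjusted p = 0.044). The brightest Arg2 probe set gave 2.12 (adjusted p = 0.070), and with the mean of both Arg2 probe sets the value was 2.36 (adjusted p = 0.039). None passed at days 1, 4 and 6, beside 0.0194%, 0.608% and 0.025% of all, with 1, 2 and 3 at an unadjusted p under 0.05.

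These 3 calls lay close to the threshold. Without WT replicate 2 of day 2, the array with the high arginases, the values were 3.23 for Arg1 (adjusted p = 0.00097), 2.72 for the brightest Arg2 probe set (adjusted p = 0.012) and 0.71 for Sat1 (adjusted p = 0.075). The Arg1 call was lost without any single control array of either genotype, without WT day 2 replicate 1 or 3, or without D6-deficient day 2 replicate 2 or 3, with values from 2.03 to 2.51. Of the 12 arrays that enter the Sat1 comparison, leaving out any but WT control replicate 3 or WT day 2 replicate 3 lost the call, with values from 0.61 to 0.74. The dimmer Arg2 probe set lost its call without WT control replicate 2, D6-deficient control replicate 1 or 2, WT day 2 replicate 1 or 3 or D6-deficient day 2 replicate 2, with values from 2.12 to 2.64.

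Averaged over the 5 days, 4 of the 19 probe sets were higher in D6-deficient skin and 1 lower, beside 5.52% of all tested in either direction. They were Arg1 (0.90), both Arg2 probe sets (0.96 and 0.92), an Azin1 probe set (0.17) and, lower, an Sms probe set (-0.26). These averages include day 2. For Arg1 the differences at days 0, 1, 2, 4 and 6 were 0.61, -0.08, 3.05, -0.10 and 1.04. For the brightest Arg2 probe set they were 0.50, 0.90, 2.62, 0.50 and 0.31, and for both genes only day 2 passed by itself. Odc1, Srm, Amd1, Sat1, Oaz1 and Paox did not pass, and the Odc1 difference was 0.13 ± 0.11 for its brightest probe set (adjusted p = 0.57).

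From one time point to the next, WT skin had most of its calls between days 2 and 4. In WT skin 1, 12 and 6 of the 19 changed from day 1 to 2, 2 to 4 and 4 to 6, beside 1.2%, 14.5% and 22.1% of all. In D6-deficient skin the counts were 4, 6 and 5, beside 10.4%, 16.3% and 31.4%. Azin1 fell by 0.31 and 0.44 after day 4 in WT and D6-deficient skin (adjusted p = 0.036 and 0.0024), and Paox rose again by 0.60 and 0.68 (adjusted p = 0.00018 and 2.3e-05).

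Other genes of the pathway were described from 3 lists. At days 1, 2, 4 and 6 in WT, 11.4%, 11%, 17.3% and 10.2% of all tested probe sets were higher. In the same order 12.7%, 15%, 21.8% and 11.9% were lower. In D6-deficient skin the shares were 18.2%, 17.5%, 18.8% and 16% higher and 18.1%, 20.6%, 22.4% and 15.7% lower. Some list counts lay at or under these shares, such as 1 higher of 26 for the methionine list in WT at day 2. Of the other polyamine genes, 13 were tested with 27 probe sets, of which 5, 5, 9 and 6 were higher and 2, 2, 2 and 0 lower in WT at days 1, 2, 4 and 6. In D6-deficient skin 7, 9, 11 and 11 were higher and 1, 1, 2 and 1 lower. Smox, spermine oxidase, was the only one of them to rise more than 3-fold: its brighter probe set rose by 2.24, 2.84, 2.69 and 1.45 in WT and by 1.93, 1.66, 2.55 and 1.16 in D6-deficient skin. WT control arrays lay between 7.49 and 7.61 for this probe set, and the WT mean at day 2 was 10.38. D6-deficient controls lay higher, between 8.01 and 8.37, a difference of 0.67 that did not pass (adjusted p = 0.14), and the D6-deficient mean at day 2 was 9.88. At day 2 the response of this probe set was smaller in D6-deficient skin by 1.17 (adjusted p = 0.029), the opposite sign to Sat1 and Arg1. Its levels at day 2 differed by -0.50 (adjusted p = 0.27). The dimmer Smox probe set did not show this, with a response difference of -0.05 (adjusted p = 0.96) and a level difference of 0.30 (adjusted p = 0.45). It rose by 1.92 at day 4 in D6-deficient skin and was then higher than in WT by 0.79 (adjusted p = 0.039).

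Of the genes around arginine, ornithine and proline, 10 were tested with 20 probe sets, of which 5, 2, 10 and 8 were higher and 1, 3, 1 and 2 lower in WT at the 4 days. In D6-deficient skin 6, 5, 9 and 7 were higher and 2, 3, 3 and 5 lower. Ass1, argininosuccinate synthase, which remakes arginine from citrulline, rose at each day, by 1.33 to 1.72 in WT and by 1.84 to 2.72 in D6-deficient skin, with its largest value at day 2 (adjusted p = 1.7e-08). Glul, glutamine synthetase, rose by 1.76 at day 4 in D6-deficient skin (adjusted p = 3.7e-06) and by 0.82 in WT. Pycr1, which makes proline, rose by 1.74 at day 6 in D6-deficient skin (adjusted p = 0.00089) and by 1.06 in WT. No probe set of this list differed between genotypes on the same day.

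Of the methionine cycle and salvage genes, 10 were tested with 26 probe sets, with 3, 1, 5 and 4 higher and 0, 0, 1 and 1 lower in WT at the 4 days. In D6-deficient skin 7, 5, 7 and 9 were higher and 0, 6, 2 and 0 lower. Mtap, which recovers methionine from the methylthioadenosine left by spermidine and spermine synthesis, rose by 1.69 at day 1 in D6-deficient skin (adjusted p = 5.8e-07) and by 0.52 in WT (adjusted p = 0.049). Its response at day 2 was larger in D6-deficient skin by 1.40 (adjusted p = 0.0025), with D6-deficient controls that were lower than WT controls by 0.76 (adjusted p = 0.045). Neutrophil, follicle and muscle markers moved on these days as given above, and their part in these pathway values was not tested.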

How the data were processed

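Total RNA of whole back skin from 30 mice was hybridised to Affymetrix Mouse430_2 arrays, 1 array a mouse. The deposited table holds linear intensity values that the authors made from the scans by RMA (background correction, quantile normalization and probe set summary, in GeneSpring GX); the version of RMA is not given in the sources used here. Quantile normalization gives every array about the same distribution, so changes are relative to the rest of the array. A second deposited text holds a sample sheet with no measurement and was not used. These deposited intensities were transformed to log2 for this work, with no further normalization and without the 64 control probe sets.

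Samples were grouped by genotype and day from their labels. The lowest 20% of the 45037 probe sets by mean (9008) were left out, and a linear model with 1 mean per group was fitted to all 30 arrays with limma 3.58.1 (lmFit and eBayes, R 4.3.3), with Benjamini-Hochberg adjustment over the 36029 probe sets of each comparison; each p-value quoted as adjusted comes from this fit unless another test is named. The steps were tested on simulated data. Comparisons with day 0 share the control arrays. Members, gene lists and tests were chosen with earlier results of these data known. Every member is described by its brightest probe set, with the others by counts and ranges; from the pathway lists, probe sets that passed with a change of over 3-fold are named; the 5 genes most like Odc1, Arg1 and Srm are named by Pearson correlation over the group means. Precision is limited by 3 arrays a group, for which an exact permutation test cannot go below p = 0.1. No 2 arrays held identical values (highest correlation, 0.995). Alternatives were other filters, median centring, the arrays of each comparison alone, a replicate block, trended and robust variances, and array weights. Others were the mean of a gene's probe sets, the methods' t-test with its threshold of over 3-fold, and leaving out each array. A further one took as a covariate 2 sets of arrays (17 and 13), formed by k-means clustering of their hybridisation control values. The labels do not name these sets, and all 3 D6-deficient day 6 arrays fell in the set of 17. Promoters were searched with Python 3.11.15 and figures drawn with matplotlib 3.10.9.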

Additional observations from a re-analysis of the deposited data

Results flagged for a closer look

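The change from day 0 to day 2 differed between the genotypes for 3 member probe sets. It was larger in D6-deficient skin by 2.45 for Arg1 (adjusted p = 0.034), by 2.60 for the dimmer Arg2 probe set (adjusted p = 0.028) and by 0.71 for Sat1 (adjusted p = 0.044), all on the log2 scale by limma.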

How the results depend on the processing

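The 19 probe sets gave 38 calls over the 4 WT comparisons with day 0, 48 over the D6-deficient ones, 3 between genotypes on the same day and 3 relative to day 0. With a change of over 3-fold required as well, the first 2 counts were 7 and 11, and the methods' t-test at the methods' threshold also gave 7 and 11; after Benjamini-Hochberg adjustment that t-test gave 14, 23, 0 and 0. Array weights gave 8 calls on the same day and 6 relative to day 0. With the probe sets of a gene averaged, 10 genes gave 22 and 28 calls, against 20 and 22 for the brightest probe sets alone, and the change of Azin1 at day 2 in D6-deficient skin turned from -0.07 to 0.44. Leaving out each array in turn gave 33 to 40 WT calls, 38 to 48 D6-deficient calls, 3 to 4 on the same day and 0 to 4 relative to day 0. Same-numbered replicates were not treated as pairs in the main fit. In 0 of 13 comparisons did all pairs correlate above 0.1, and 10 of 30 arrays correlated best with their own number. The pairs of D6-deficient and WT arrays at day 6 gave 0.27, 0.38 and 0.08. With 3 arrays a group, this check cannot show that the numbers carry nothing shared. With a replicate block the counts were 38, 49, 3 and 2, Sat1 relative to day 0 at day 2 no longer passing (adjusted p = 0.059). Other settings stayed within 1.5 times of the counts. Where an alternative changed a count, the cause was not tested, except that fewer features or a stricter threshold enter by construction. RMA values carry no background flag, so the dimmest Sms probe set, with a mean of 3.90, is the least certain member.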
